A study of Mus musculus with 4 samples.

Results

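The potassium channel genes examined here are the 93 protein-coding mouse genes whose symbols start with Kcn in the RefSeq annotation of GRCm38, without Kcnj10, out of 21887 protein-coding genes on chromosomes 1 to 19, X and Y. They fall into 40 voltage-gated, 14 inward rectifier, 14 two-pore and 5 calcium-activated channel genes, 3 sodium- or pH-gated relatives of the Slo type, and 17 genes of auxiliary and regulatory proteins. The study used ChIP-seq, the sequencing of DNA that an antibody pulls down with its bound factor, to map STAT3 in spinal cords of C57BL/6 mice at day 7 after surgery. SCI mice had a laminectomy and a moderate contusion of 60 kdyn at thoracic level 9, and sham mice had the laminectomy alone. Each condition had 1 STAT3 library, made from tissue of 3 mice pooled. Cells were dissociated from tissue at the epicentre, and the protocol describes no sort for 1 cell type. The sources used here give no age for the mice, and the input library of each condition was not analysed here.

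Potassium channels let potassium leave or enter the cell down its gradient, and so set the resting potential, shape the repolarisation of action potentials and buffer extracellular potassium. Voltage-gated members open on depolarisation, inward rectifiers and two-pore channels carry resting and glial potassium conductances, and calcium-activated members couple calcium entry to hyperpolarisation. In the spinal cord they are known from neurons, myelinated axons, astrocytes and microglia. STAT3 is a factor that cytokines of the interleukin-6 family activate, and it is known from reactive astrocytes and from immune cells.

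The data are 2 lists of peaks, each peak with a position and the authors' own score for its strength, which was 5 or more in every row. On the chromosomes used, the SCI list had 36249 peaks and the sham list 88765. With 1 library per condition, no difference between SCI and sham has a replicate check and no p-value is given. Peaks carry no level of RNA, so the tissue could not be checked against marker genes. In bulk tissue, fewer cells of a type and less binding per cell cannot be told apart. A peak was assigned to a gene if its centre fell in the gene or in a window of 5 kb beyond each end. Peak coordinates are given in mm10, and no exons were at hand, so peaks inside a gene were not split into exonic and intronic ones. The strength of a peak is given as its score and as its place in its own list, where the top 1% are the highest scores.

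Most potassium channel genes had a STAT3 peak in at least 1 list. In SCI 50 of the 93 genes had a peak, 53.8% with a 95% exact interval of 43.1 to 64.2%, against a background of 43.9% of all protein-coding genes. In sham 68 had a peak, 73.1% (62.9 to 81.8%), against a background of 66.7%. Long genes catch more peaks, so each gene was also set beside the other protein-coding genes of its length class, 1 of 20 classes of equal size. Genes of like length gave 52.8 genes with a SCI peak and 72.1 with a sham peak, so both counts lay slightly below the length-matched value and within the interval.

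Peaks of both lists were found at 43 of the genes, against 37.3% of all protein-coding genes. A SCI peak alone was present at 7 genes, where the background was 6.51%, and a sham peak alone at 25, where it was 29.3%. The remaining 18 genes had no peak in either list, as did 5871 of the 21887 protein-coding genes. These backgrounds are not matched for length, and the potassium channel genes are longer, with a median of 32.5 kb against 17.2 kb. The 18 genes without a peak were short, between 1.97 and 46.7 kb with a median of 9.28 kb. Every one of the 21 potassium channel genes in the longest length class (185 kb and more) had a sham peak. All of the 21 except Kcnj3 had a SCI peak (95.2%). Of the 1073 other genes of that class, 99.8% had a sham peak and 96.9% a SCI peak, so these shares were near those of long genes in general.

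**Figure D1:**
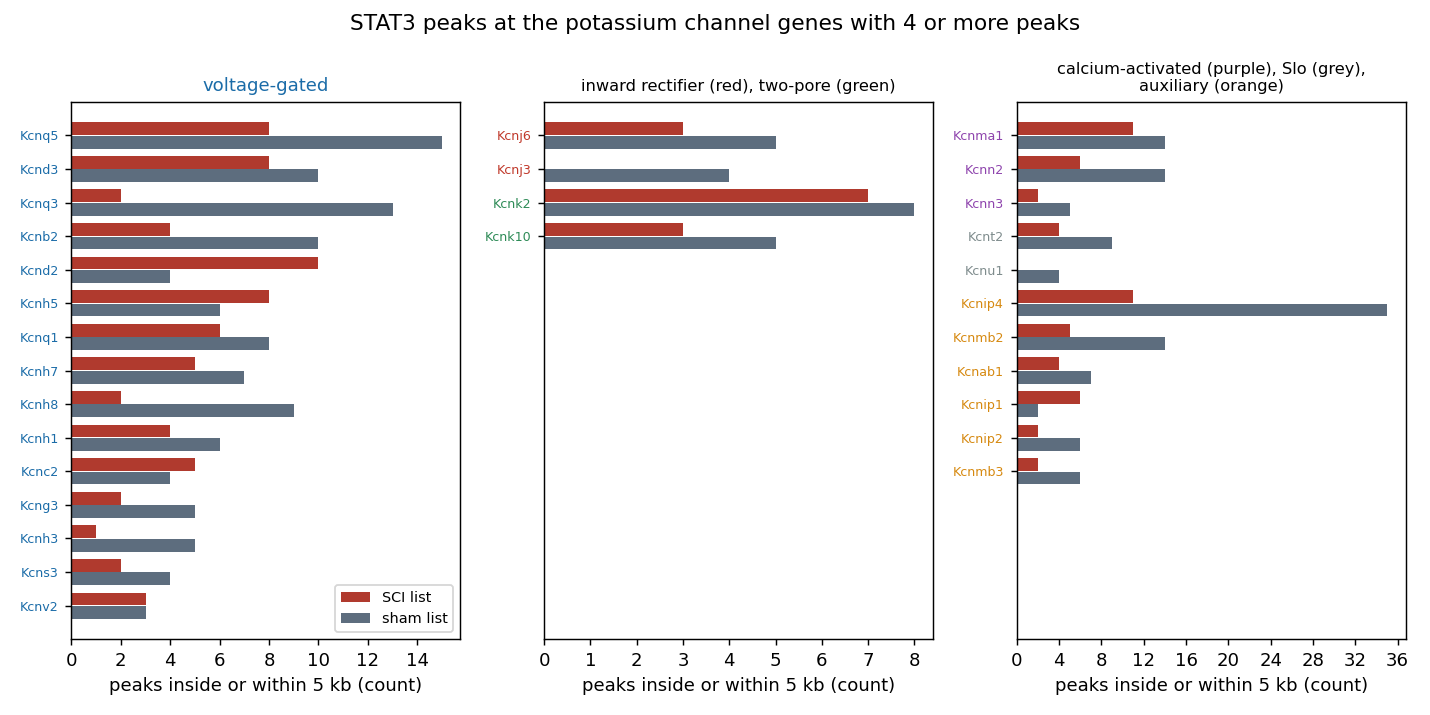
Number of SCI (red) and sham (grey) STAT3 peaks inside or within 5 kb of each of the 30 potassium channel genes with 4 or more peaks in the lists together, with gene names coloured by class; bars start at 0 and the 3 panels have their own scales. Kcnip4 carried the most sham peaks (35) and shared the highest SCI count (11) with Kcnma1, and Kcnd2 had 10 SCI and 4 sham peaks.

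The number of peaks told the lists apart more than the number of genes did. The 93 genes held 161 SCI peaks (exact Poisson interval 137 to 188, counting error only), against 167.5 from genes of like length, a ratio of 0.961. They held 300 sham peaks (267 to 336), against 407.9, a ratio of 0.735. The counting interval thus held the length-matched value in SCI and not in sham. Per 100 kb of gene and window, the potassium channel genes had 1.39 SCI and 2.59 sham peaks, against 1.56 SCI and 3.89 sham peaks at the other protein-coding genes. In the longest class alone they had 1.385 SCI and 2.37 sham peaks per 100 kb, against 1.33 SCI and 3.17 sham peaks at the 1073 other genes of that class.

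Genes of the longest class varied widely among themselves. The 21 potassium channel genes in it had a median of 5 SCI and 8 sham peaks, with quartiles of 4 to 8 SCI and 6 to 13 sham peaks. The 1073 others had a median of 5 SCI and 11 sham peaks, with quartiles of 3 to 7 SCI and 7 to 16 sham peaks. The quartile ranges overlapped in both lists. The 5 longest genes, Kcnip4, Kcnma1, Kcnq5, Kcnd2 and Kcnh7, held 45 of the 161 SCI peaks and 75 of the 300 sham peaks. Without them the ratio to genes of like length was 0.829 in SCI and 0.658 in sham.

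By density, the genes had fewer sham peaks than the sequence around them, and about as many SCI peaks. Summed over the genes, the 500 kb on either side of each gene window held 1523 SCI and 3828 sham peaks, 2.51 sham peaks for each SCI peak. In these sums a peak in the flanks of more than 1 of the genes was counted for each of them. Flanks have the same size at every gene, so long genes weigh more inside the windows than in the flanks. Inside the windows the ratio was 1.86 sham peaks for each SCI peak, against 2.49 at the other protein-coding genes. Scaled to the density of these flanks, the genes had 1.03 times the SCI peaks and 0.725 times the sham peaks, while the other protein-coding genes had 1.00 times in both lists. This comparison with the flanks was added after the data had been seen. The other genes were not matched for length in it, and no flank value was computed for the longest class alone.

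**Figure D2:**
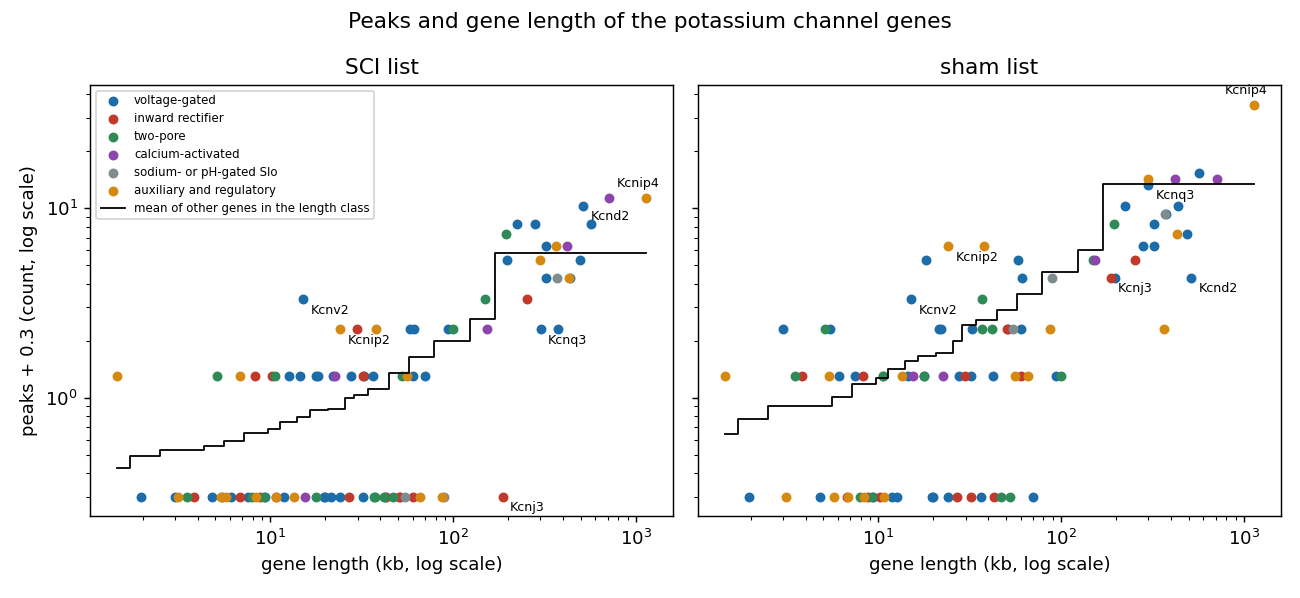
Number of SCI peaks (left) and sham peaks (right) plus 0.3 at each potassium channel gene against gene length, both axes on a log scale, with points coloured by class and a black line for the mean of the other protein-coding genes in the same length class. Most long genes lay below the line of 13.2 peaks in sham, whereas in SCI they lay on both sides of the line of 5.52 peaks.

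More SCI than sham peaks were found at 14 of the 93 genes, 15.1%, against a background of 9.76%. In 7 of them both lists had peaks, among them Kcnd2, Kcnh5, Kcnip1 and Kcnc2. Among the 21 genes of the longest class, 4 had more SCI than sham peaks (19.05%), whereas 34 of the 1073 other genes of that class did (3.17%). This split of the longest class was chosen after the values were seen and rests on 4 genes.

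The flanks of these 4 genes held more sham than SCI peaks, as did those of all 93 genes. Kcnd2, a pore subunit of the transient A-type current that limits firing in dorsal horn neurons, had 10 SCI and 4 sham peaks, with 9 SCI and 15 sham peaks in its flanks. Kcnh5, a channel of the ether-a-go-go family, had 8 SCI and 6 sham peaks, with 12 SCI and 36 sham peaks in its flanks. Kcnip1 had 6 SCI and 2 sham peaks, with 12 SCI and 27 sham peaks in its flanks, and encodes a calcium-binding partner of the A-type channels. Kcnc2, a channel of fast-spiking neurons, had 5 SCI and 4 sham peaks, with 14 SCI and 42 sham peaks in its flanks.

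At Kcnd2 most SCI peaks were of middling strength. The 3 highest lay at chromosome 6, 21616601 to 21616764 (score 14.9, top 9.11%), 21720181 to 21720344 (14.5) and 21632255 to 21632418 (12.8). None of these had a sham peak over it, and the highest of the 4 sham peaks scored 8.33 (top 47.9%). Some scores have a square-root form (a whole number k gives the score 2√k − 1), which was found at 33.1% of all SCI and 22.9% of all sham peaks. Without peaks of that form, Kcnd2 kept 7 SCI and 4 sham peaks, Kcnh5 6 SCI and 4 sham peaks, Kcnip1 3 SCI and 2 sham peaks, and Kcnc2 3 SCI and 3 sham peaks. The order was thus the same at Kcnd2, Kcnh5 and Kcnip1, and Kcnc2 was level. The 4 genes were picked by counts that include these peaks, so this is no independent check.

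STAT3 peaks close to gene starts were few. RefSeq start sites were at hand for 68 of the 93 genes, and 4 of these (5.88%) had a SCI peak centred within 1 kb of a start, against 3.19% of all protein-coding genes with a listed start. In sham it was also 4 (5.88%), against 7.29%. The SCI peaks belonged to Kcnh1, 233 bp after the start with a score of 10.9, Kcnj5, 305 bp after it with a score of 5, Kcnc4 and Kcnip4. Those of Kcnc4 and Kcnip4 lay inside the gene, before a start that is itself inside it. The Kcnc4 peak was 363 bp before that start with a score of 7, and the Kcnip4 peak 869 bp before with a score of 6.26. The sham peaks belonged to Kcnt2, Kcnj16, Kcnk15 and Kcns1, and only that of Kcnt2, with a score of 24.0 (top 5.49%), was in the top 10% of its list. No gene had a start peak in both lists.

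The RefSeq promoter table of GRCm38.p6 gives the 250 bases before and the 50 from each start on, with 93 such promoters for the 68 genes. A SCI peak overlapped none of the 93, against 0.621% of 21263 promoters of protein-coding genes, and a sham peak overlapped 2 (2.15%), against 1.53%. Both are printed because they are the only promoters of the group that a peak covered, with the bases under the sham peak in capitals.
Kcnt2 promoter, chr1:140245468-140245767, plus strand: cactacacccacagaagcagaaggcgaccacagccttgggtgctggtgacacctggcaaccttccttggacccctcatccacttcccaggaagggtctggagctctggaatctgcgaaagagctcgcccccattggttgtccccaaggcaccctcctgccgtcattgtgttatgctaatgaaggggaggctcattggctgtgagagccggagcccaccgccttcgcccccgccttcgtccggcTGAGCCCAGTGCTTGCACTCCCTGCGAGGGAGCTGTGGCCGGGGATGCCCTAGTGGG
Kcnj16 promoter, chr11:110967783-110968082, plus strand: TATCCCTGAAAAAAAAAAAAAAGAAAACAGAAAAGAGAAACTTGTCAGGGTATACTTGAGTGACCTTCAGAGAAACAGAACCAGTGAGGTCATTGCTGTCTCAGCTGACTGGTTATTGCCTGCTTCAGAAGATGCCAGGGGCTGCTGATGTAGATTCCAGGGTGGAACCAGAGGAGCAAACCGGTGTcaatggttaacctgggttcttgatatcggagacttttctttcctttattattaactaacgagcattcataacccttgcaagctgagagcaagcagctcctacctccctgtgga
The peak at Kcnt2, which encodes a sodium-activated channel, covered the last 57 bases of its promoter, and that at Kcnj16, a subunit that joins inward rectifiers of glia and kidney, covered the first 187 bases.

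STAT factors are known to bind TTCNNNGAA, which reads the same on both strands. This core was present in 8 of the 93 promoters (8.60%), against 7.69% of all 21263 promoters of protein-coding genes. The stricter form TTCCNGGAA was present in none of the 93, against 1.17% of all. The 8 cores are printed with their neighbouring bases to show which variants of the core occur, with the core in capitals.
Kcnj9 promoter, chr1:172329528-172329552, minus strand: cctctattTTCCCAGAAtgaggagc
Kcnip3 promoter, chr2:127522142-127522166, minus strand: cctgggctTTCTGGGAAagagggga
Kcnmb2 promoter, chr3:31902670-31902694, plus strand: cacagagcTTCGGAGAActaatctt
Kcnab1 promoter, chr3:64949016-64949040, plus strand: tttccataTTCCAAGAAgtgacagg
Kcnip1 promoter, chr11:33680864-33680888, minus strand: ctgaatccTTCAGAGAAtatgctgg
Kcnj16 promoter, chr11:110967840-110967864, plus strand: gagtgaccTTCAGAGAAacagaacc
Kcnj6 promoter, chr16:94997665-94997689, minus strand: gagtagcaTTCGTTGAAtctgcggc
Kcnk4 promoter, chr19:6934708-6934732, minus strand: tcagtgacTTCCTAGAActaggacc
The Kcnj16 core lay under the sham peak, 185 bases before the start, and no peak lay over the other 7. A match of these letters is a description and does not show a bound site.

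With 20 length classes, voltage-gated channel genes were close to genes of like length in SCI and below them in sham. Of the 40 genes, 25 had a SCI peak and 30 a sham peak, against 23.6 and 31.6 from genes of like length. They held 81 SCI peaks (64.3 to 100.7) against 80.4, and 131 sham peaks (109.5 to 155) against 194.6, which put the length-matched value inside the counting interval in SCI and outside it in sham. With 10 length classes both calls turned, at a ratio of 1.28 in SCI, with the length-matched value just below the interval, and 0.845 in sham, with the value just inside it. Of these genes 22 had peaks in both lists, 3 in SCI alone, 8 in sham alone and 7 in neither.

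The A-type genes Kcnd1, Kcnd2 and Kcnd3 together had 19 SCI peaks (11.44 to 29.67) against 11.54 from genes of like length. They had 15 sham peaks (8.395 to 24.7) against 27.6. The length-matched value lay just inside the counting interval in SCI and outside it in sham. Kcnd3, the other main pore subunit of the A-type current, had 8 SCI and 10 sham peaks and held the highest-scoring SCI peak of the group, at chromosome 3, 105637496 to 105637576, with a score of 38.3 (top 0.234%). The strongest sham peak at Kcnd3, with a score of 35.9 (top 1.42%), lay at another position, 105619819 to 105619876. Both peaks were narrower than the usual 164 bp of the SCI list and 190 bp of the sham list. A noncoding gene on the same stretch, Kcnd3os, held 2 of the SCI peaks counted at Kcnd3.

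Kcnq3 and Kcnq5 are genes of the M-current, which holds neurons back from repetitive firing. Kcnq5 had 8 SCI and 15 sham peaks, and Kcnq3 had 2 SCI and 13 sham peaks, where genes of their length class averaged 5.52 SCI and 13.2 sham peaks. Kcnq1, known from heart and epithelia, had 6 SCI and 8 sham peaks, of which 3 SCI and 3 sham peaks also lay inside the noncoding gene Kcnq1ot1.

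The ether-a-go-go family of 8 Kcnh genes had 21 SCI and 35 sham peaks, against 24.6 SCI and 59.3 sham peaks from genes of like length. Kcnh3, a brain member of that family, had 1 SCI and 5 sham peaks, with the best sham peak at a score of 28.4 (top 3.34%). The 8 Shaker-type genes were short, at most 36.2 kb, and 5 of them had a peak. Kcna1 and Kcna2, the channels beside the nodes of myelinated axons, and Kcna3, known from T cells and microglia, had no peak in either list. Kcna4 and Kcna10 had 1 SCI peak and no sham peak each, with scores of 9 and 8.80. Kcna6 had 1 SCI and 2 sham peaks, and Kcna5 and Kcna7 had no SCI and 2 sham peaks each. The family held 3 SCI peaks (0.619 to 8.77) against 3.59 from genes of like length, and 6 sham peaks (2.20 to 13.1) against 9.48.

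Kcnc1, a channel of fast-spiking neurons, had no SCI peak and 1 sham peak. Among the silent subunits, which modify other channels and carry no current alone, Kcnv2 had 3 SCI and 3 sham peaks at a gene of 15.1 kb. Genes of its length averaged 0.488 SCI and 1.26 sham peaks. In each list 2 of the Kcnv2 peaks lay outside the gene, at 3966 and 4707 bp in SCI and 4063 and 4755 bp in sham. These 2 positions were shared by the lists. Kcng2 had 1 SCI peak with a score of 10.5 and no sham peak, and Kcnf1, Kcng4 and Kcnv1 had none in either list.

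**Figure D3:**
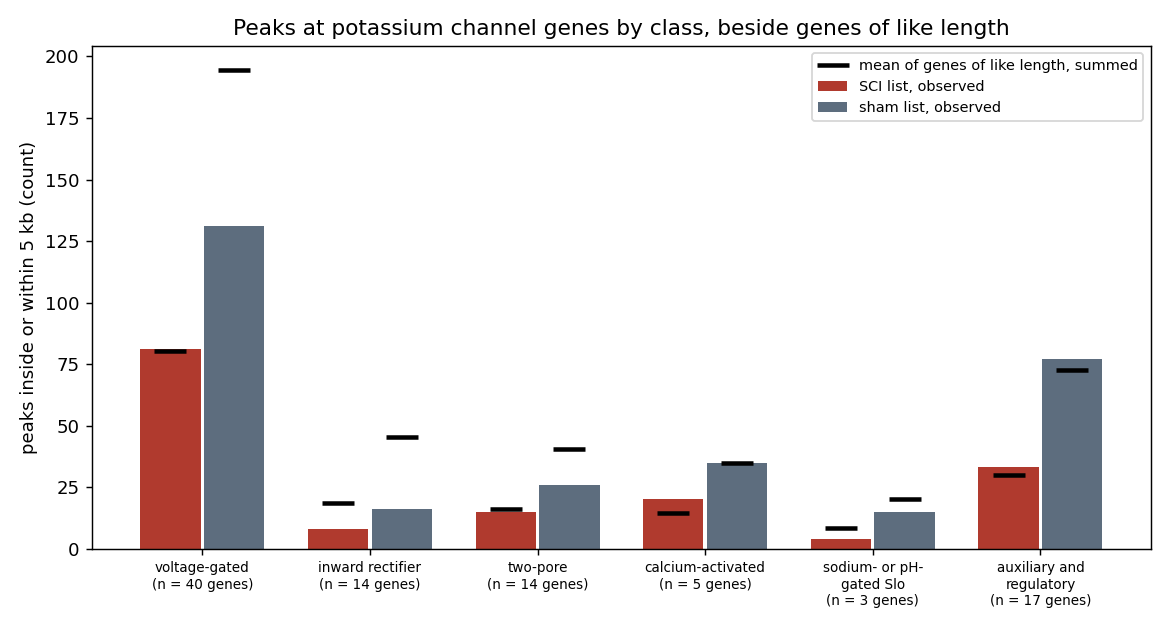
Number of SCI (red) and sham (grey) peaks at the potassium channel genes of each class, with black marks for the sum of the means of genes of like length (20 length classes); bars start at 0. In the voltage-gated class the SCI bar (81) meets its mark (80.4) and the sham bar (131) stays below it (194.6), and the inward rectifiers stay below both marks.

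Of the 6 classes, inward rectifier genes had the lowest ratio of peaks to genes of like length in both lists with 20 length classes; with 50, the Slo genes were lower in SCI, at a ratio of 0.364. Of 14 genes, 5 had a SCI peak and 8 a sham peak, against 7.00 and 10.4 from genes of like length. They held 8 SCI peaks (3.45 to 15.8) against 18.4, and 16 sham peaks (9.14 to 26.0) against 45.4. Both length-matched values lay outside the counting intervals. With 50 length classes, which follow the length of each gene more closely, the ratio moved to 0.566 in SCI and 0.456 in sham, so it stayed below 1 in both lists. The length-matched value then lay inside the counting interval in SCI, as it also did with 10 classes, and outside it in sham.

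Among the channels that G proteins open, the long genes Kcnj3 and Kcnj6 lay far below the mean of their class, an open class in which Kcnj3 is among the shortest. Kcnj3 had no SCI peak and 4 sham peaks over 186 kb, and Kcnj6 had 3 SCI and 5 sham peaks over 253 kb, where the class averaged 5.52 SCI and 13.2 sham peaks. Kcnj6 held the best SCI peak of the inward rectifiers, at chromosome 16, 94782812 to 94782975, with a score of 16.5 (top 6.93%). Kcnj5, of the same type, had 2 SCI peaks and 1 sham peak, and Kcnj9 had none.

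The strong inward rectifiers of muscle and neurons had single peaks or a pair. Kcnj2 had no SCI and 1 sham peak, Kcnj12 no SCI and 2 sham peaks, Kcnj4 1 SCI and no sham peak, and Kcnj14 1 SCI and 1 sham peak at a shared position. Kcnj13, known from epithelia, had 1 SCI peak with a score of 9.14 and no sham peak. The ATP-sensitive subunit Kcnj11 had 1 sham peak, and its relative Kcnj8 and the kidney channel Kcnj1 had no peak in either list. Kcnj15 had none over 42.7 kb, and its nearest SCI and sham peaks were 11.5 and 17.9 kb away.

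Two-pore channel genes were close to genes of like length in SCI and below them in sham. Of 14 genes, 6 had a SCI peak and 10 a sham peak, against 7.27 and 10.6 from genes of like length. They held 15 SCI peaks (8.39 to 24.7) against 16.2, and 26 sham peaks (16.98 to 38.1) against 40.6. The length-matched value lay inside the counting interval in SCI and just outside it in sham. With 50 length classes the ratio in sham was 0.742, and the length-matched value lay inside the interval there too.

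Most of these peaks in SCI lay at the stretch-sensitive channel genes Kcnk2 and Kcnk10, at 195 and 149 kb the longest of the class. Kcnk2 had 7 SCI and 8 sham peaks, where its length class averaged 5.52 SCI and 13.2 sham peaks. Kcnk10 had 3 SCI and 5 sham peaks, where its length class averaged 2.31 SCI and 5.74 sham peaks. Kcnk4, a short gene of the same type, had none. The best SCI peak at Kcnk10, at chromosome 12, 98508413 to 98508467, scored 30.1 (top 0.717%), and its best sham peak, at 98537036 to 98537225, scored 30.1 (top 2.72%). The sham peak had a SCI peak over it with a score of 13.0, and the best SCI peak had no sham peak over it.

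Kcnk13, the main background potassium channel of microglia, had 2 SCI peaks and 1 sham peak, with best scores of 13.4 in SCI and 9.68 in sham. Its relative Kcnk12 had 1 SCI peak, at chromosome 17, 87789188 to 87789351, with a score of 18.4 (top 4.82%), and no sham peak. The nearest sham peak lay 5.27 kb from Kcnk12, just beyond the window. Kcnk1, a channel known from astrocytes, had no SCI and 3 sham peaks, with a best score of 6.48. Kcnk6 had 1 SCI peak with a score of 6.63 and 1 sham peak with a score of 30.8 (top 2.48%). The acid-sensitive channels Kcnk3 and Kcnk5 had no SCI and 2 sham peaks each, and Kcnk9, of the same type, had none over 46.7 kb.

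Calcium-activated channel genes did not differ from genes of like length beyond counting error. Of 5 genes, 4 had a SCI peak and 5 a sham peak, against 3.61 and 4.36 from genes of like length. They held 20 SCI peaks (12.2 to 30.9) against 14.4, and 35 sham peaks (24.4 to 48.7) against 34.8, so both counting intervals held the length-matched value. The ratio depended on the length classes, at 1.39 in SCI and 1.01 in sham with 20 classes and 0.996 in SCI and 0.725 in sham with 50.

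Kcnma1, the channel of large conductance gated by calcium and voltage, had 11 SCI and 14 sham peaks over 713 kb. Its best SCI peak scored 13.7 (top 11.7%), and its best sham peak scored 36.3 (top 1.35%). Among the channels of small conductance, which hyperpolarise neurons after a spike, Kcnn2 had 6 SCI and 14 sham peaks, Kcnn3 had 2 SCI and 5 sham peaks, and Kcnn1 had 1 of each. Kcnn4, the calcium-activated channel of microglia and T cells, had no SCI and 1 sham peak, with a score of 6.95. Of the Slo relatives, Kcnt2 had 4 SCI and 9 sham peaks with best scores of 27.8 in SCI and 26.3 in sham, and Kcnt1 and the sperm channel Kcnu1 had sham peaks alone.

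**Figure D4:**
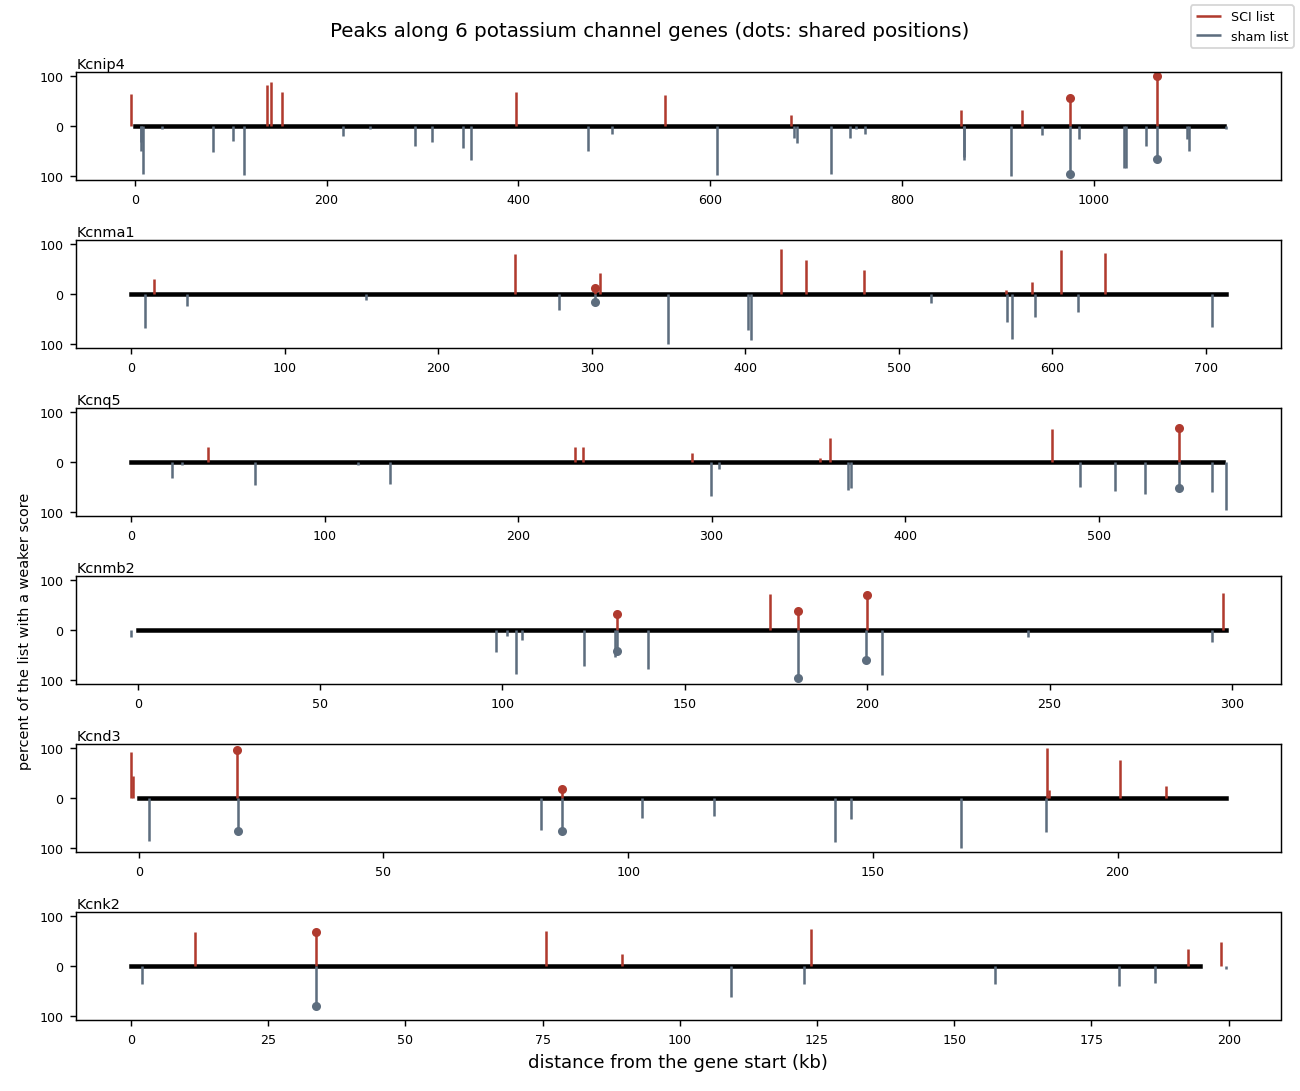
Peaks along 6 long potassium channel genes by distance from the gene start in kb, SCI upward and sham downward, with line height giving the percent of the list with a weaker score and dots marking shared positions; the black bar is the gene. Peaks of both lists are spread along the genes, and few positions carry a dot.

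With 20 length classes, genes of auxiliary proteins did not differ from genes of like length beyond counting error. The 17 genes held 33 SCI peaks (22.7 to 46.3) against 29.9, and 77 sham peaks (60.8 to 96.2) against 72.5. In sham this depended on the comparison, since the ratio was 1.34 with 10 length classes and 0.733 against the flanks, with the matched value outside the interval on opposite sides; in SCI the ratios were 1.41 and 1.22, with the value inside it. Kcnip4, a calcium-binding partner of the A-type channels and at 1136 kb the longest of all 93 genes, alone held 11 SCI and 35 sham peaks. Kcnip2, its relative on a gene of 24.1 kb, had 2 SCI and 6 sham peaks and the highest-scoring sham peak of all 93 genes, at chromosome 19, 45811631 to 45811820, with a score of 38.3 (top 1.11%). Kcnip3, known as a calcium-sensing repressor, had no SCI and 1 sham peak. Kcnmb2, an accessory subunit of the large-conductance channel, had 5 SCI and 14 sham peaks, and Kcnmb3 had 2 SCI and 6 sham peaks. Kcnmb1 lies within the span of Kcnip1 and had no peak of its own.

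Most peaks had their centre inside the genes, and peaks lay along their whole length. In SCI 148 of the 161 peaks (91.9%) and in sham 264 of the 300 (88%) had their centre inside the gene. Gene bodies also make up most of the sequence searched, since the window adds only 5 kb at each end. No expected share was computed for this. Where the strand was known and the gene was cut into 3 equal parts from the start on, these parts held 29, 47 and 47 of 123 SCI peaks and 61, 72 and 67 of 200 sham peaks. No peak belonged to more than 1 of the 93 genes, and 9 SCI and 18 sham peaks also lay at another protein-coding gene. The window decided some calls. The SCI peak farthest outside a gene lay 4765 bp from Kcnab3, a beta subunit, and the nearest one left out lay 5653 bp from Kcnrg, a regulator of channel assembly. In sham these were 4809 bp at Kcnk5 and 5126 bp at Kcne3.

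Most positions at potassium channel genes were in 1 list alone. Of the 161 SCI peaks, 33 at 22 genes overlapped a sham peak, 20.5% (14.5 to 27.6%), against 23.0% of the SCI peaks at other protein-coding genes. Of the 300 sham peaks, 33 overlapped a SCI peak, 11% (7.69 to 15.1%), against 9.29%. Both intervals held the value of the other genes. The centres of a shared pair were 61 bp apart in the median and 175 bp at most.

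Most of the strongest peaks were also in 1 list alone. The top 10% of each list by score held 16 of the SCI peaks and 36 of the sham peaks of these genes. Of these, 4 in SCI (25%, interval 7.27 to 52.4%) and 8 in sham (22.2%, 10.1 to 39.2%) were shared. Over all peaks in the top 10% the shares were 42.0% in SCI and 21.0% in sham, each inside its interval. Among the weaker peaks of the potassium channel genes, 20% in SCI and 9.47% in sham were shared. The position beside Kcnv2, at chromosome 19, 27341064 to 27341227 in SCI and 27341148 to 27341337 in sham, was the sole one in the top 10% of both lists, with scores of 14.5 in SCI and 26.7 in sham. It lay 3966 bp outside the gene. Next by the lower of the paired ranks came positions inside Kcnc2, in the top 10.96% in SCI and 6.10% in sham, and inside Kcnk10, in the top 13.4% in SCI and 2.72% in sham. The strongest shared SCI peak of Kcnip4 scored 26.7 (top 1.13%) and the sham peak over it 10.3 (top 33.9%), and that of Kcnd3 scored 18.5 (top 4.71%) and the sham peak over it 10.1 (top 35.0%).

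**Figure D5:**
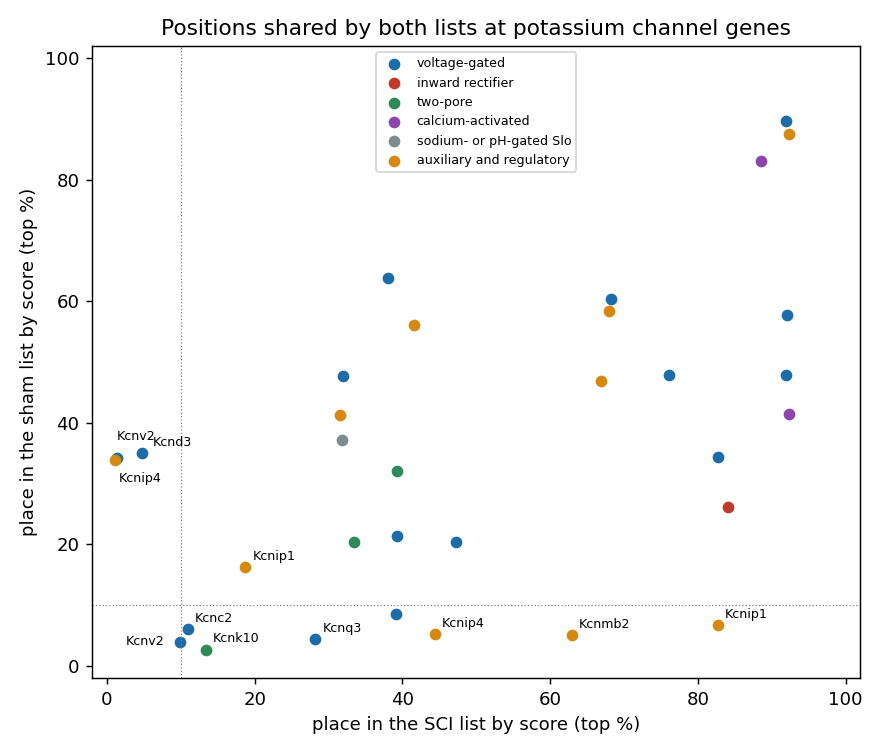
Place of each of the 33 shared positions in the SCI list (x axis, top percent by score) and in the sham list (y axis, top percent by score), coloured by channel class, with dotted lines at the top 10%. A single point, at Kcnv2, lies below 10% on both axes, and most points lie high in 1 list and low in the other or low in both.

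Other ion channel and partner genes were counted the same way. The 14 voltage-gated sodium channel genes (Scn) held 14 SCI peaks against 22.1 from genes of like length and 37 sham peaks against 55.1, and none of their SCI peaks overlapped a sham peak. The 26 genes of voltage-gated calcium channels (Cacn) held 76 SCI peaks against 67.6 and 156 sham peaks against 164. The 28 partners and potassium transport genes held 128 SCI peaks against 64.4 and 289 sham peaks against 155.8, of which Cntnap2, the axonal protein that holds Shaker-type channels beside the node, had 29 SCI and 87 sham peaks over 2241 kb. Among these lists the sodium channel genes stood closest to the potassium channel genes in sham, with a ratio of 0.735 at the potassium channel genes and 0.672 at the sodium channel genes, and the lists differ in gene length within the open longest class.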

How the data were processed

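The deposited lists give the peaks of 1 STAT3 ChIP-seq library per condition, and each peak has a score that the authors gave it. Per the submitters' processing notes, Bowtie2 aligned the reads and mm10 was the build. The sources used here do not say how peaks were called, against which control or at what threshold, and the depth of the libraries is unknown. Scores were used only within their list, since a common scale is not given. Each list was matched to its sample by title.

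Genes came from RefSeq for GRCm38.p6, which has the coordinates of mm10 on the 19 autosomes, X and Y, and peaks elsewhere were left out. Shared peaks overlap by at least 1 bp. The length-matched value sums, over the genes of a list, the share with a peak or the mean number of peaks among all other protein-coding genes of the same of 20 length classes. Starts are those of the RefSeq promoter table, which lists 68 of the 93 genes and replaced the planned gene ends. Intervals (95%, Clopper-Pearson for shares and Poisson for counts) cover counting error only. The Poisson intervals, the flanks, and the counts within the longest class were added after the data were seen.

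The genes and lists were chosen with earlier results of these data known. The genes named were taken by rule: best-ranked and shared peaks per class, a SCI peak alone, the longest without a peak, most peaks, the 5 furthest from their length class, peaks near starts and at the window edge, and a set with known roles. Further members named beside them were chosen after their values were seen. Some members that the rule takes are counted but not reported here by name. Counting was tested on simulated data. Alternatives changed the window, the score, list length, the form of score, overlap, merging, length classes and the longest genes. The tools were scipy 1.17.1, pandas 2.3.3, numpy 2.4.6, matplotlib 3.10.9 and Python 3.11.15.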

Additional observations from a re-analysis of the deposited data

How the results depend on the processing

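Among the main counts and ratios recomputed under other settings, 89 values stayed within 1.5 times or within their counting interval and 13 moved. With scores at or above the median of each list, 33 genes had a SCI peak and 28 had peaks in both lists, with 83 SCI and 154 sham peaks. With the sham list shortened to the number of SCI peaks by score, 124 sham peaks were left, 12 genes had a SCI peak alone, 13 a sham peak alone, and 11.8% of SCI peaks were shared. Without peaks of the square-root form of score, 98 SCI peaks were left, 28.6% of them shared, and 4 genes had a SCI peak alone. These settings remove peaks by construction. With 10 length classes the ratio of peaks to genes of like length was 1.17 in SCI and 0.890 in sham; the cause was not tested. Over all settings that ratio lay between 0.829 and 1.17 in SCI and between 0.658 and 0.890 in sham. None of these values changed direction in sham, and the SCI ratio lay on both sides of 1. Among further values for single genes and classes, 1271 stayed and 235 moved. No replicate could be left out, since each condition had 1 library. With 1 pooled STAT3 library per condition, no paired analysis was possible. The depth of the libraries is unknown, so a gene without a peak may have had too few reads for one to be called.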

Other observations

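Peaks of both lists came close together at some of the potassium channel genes. The densest stretches of 20 kb held 5 peaks, at 7 genes chosen after their values were seen. At Kcnh3, Kcnip2 and Kcnmb2 these were 1 SCI and 4 sham peaks each. At Kcnk2, Kcnma1, Kcng3 and Kcnmb3 they were 2 SCI and 3 sham peaks each. Other protein-coding genes were not searched for such stretches, so how common they are elsewhere was not tested.

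Scores of the square-root form were as frequent at these genes as elsewhere or somewhat more so. In SCI 63 of the 161 peaks (39.1%) had such a score, against 33.1% of all SCI peaks, and in sham 75 of the 300 (25%) did, against 22.9%. Peaks of this form were seldom in both lists, here as over the whole lists. In SCI 7.94% of them were shared at these genes, against 28.6% of the other peaks, and over all SCI peaks the shares were 4.82% and 29.97%. In sham the shares were 1.33% and 14.2% at these genes, and 0.727% and 11.3% over all sham peaks.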
